A study of Mus musculus with 12 samples.

Results

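The 9 genes Foxj1, Tmem212, Dynlrb2, Rsph1, Ccdc153, Rarres2, Mia, Dnah11 and Spag17, which mark ependymal cells and their motile cilia, were read in RNA sequencing libraries of subcortical white matter from 12 mice. They were found by gene symbol among 33864 loci, and all 9 were present. A symbol that occurred at several loci was read from the locus with the highest mean FPKM, a level per transcript length and library size. Of the 9 genes, 7 had a locus of their own. Foxj1 shared its locus with Rnf157, and Mia shared its locus with Egln2, Gm21983 and Rab4b. The value of such a joined locus cannot be given to the ependymal gene, and only 1 of the 11 annotated transcripts at the Foxj1 locus and 3 of the 15 at the Mia locus belonged to the named gene.

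Each of 4 groups held 3 mice, with 1 library per mouse. The dnEGFR mutants carried Sox10-tTA and TRE-dnEGFR, that is, a tetracycline transactivator under Sox10, a gene of the oligodendrocyte lineage, and a responder for a dominant-negative epidermal growth factor receptor. Their littermate controls carried TRE-dnEGFR alone, and for both groups doxycycline was given between postnatal days 21 and 35, the day of sampling. The ErbB2V664E mutants carried Sox10-tTA and TRE-ErbB2V664E, a responder for an activated form of the receptor ErbB2. Their littermate controls carried TRE-ErbB2V664E alone, with doxycycline between days 21 and 30, when these 2 groups were sampled. All 4 groups thus shared a TRE responder and doxycycline, and no group carried Sox10-tTA alone. In the brain Sox10 marks the oligodendrocyte lineage, and the labels do not say whether doxycycline switched the responders on or off. The libraries formed 6 litters of 1 mutant and 1 control, litters 1 to 3 in the dnEGFR line and 4 to 6 in the ErbB2V664E line.

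Ependymal cells line the brain ventricles, and each carries a tuft of motile cilia that moves cerebrospinal fluid. The core of a motile cilium, the axoneme, is a ring of doublet microtubules around a central pair. Outer and inner dynein arms slide the doublets, and radial spokes and nexin links shape the beat. Transcription factor Foxj1, together with factors of the RFX family that bind a motif called the X-box, switches on the genes of this structure. The white matter borders this lining at the lateral ventricles. In bulk samples of tissue, fewer cells of a type and less RNA per cell cannot be told apart.

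Promoter sequences were taken from RefSeq (GRCm38.p6), in windows from 250 bases before to 50 bases after the start of a gene. They were available for 6 of the 9 genes and were searched on both strands for the X-box half-sites GTTGCC and GTTACC, for the forkhead core TGTTTA and for a whole X-box. Those of the 3 tested genes with a match are printed 5′ to 3′, to show where the motifs of cilium genes lie in genes on which the results below turn. Printing stopped at the first annotated UTR, or at the end of the marked motif where that lay further on. The sequence of Dynlrb2 ends with its X-box, and a UTR of Dynlrb2 is annotated in its window. Capitals mark the whole X-box in Dynlrb2, the half-site GTTGCC in Ccdc153, and the forkhead core followed by the half-site GTTACC, read on the opposite strand, in Tmem212.
Dynlrb2, chr8:116504765-116504976 (plus strand): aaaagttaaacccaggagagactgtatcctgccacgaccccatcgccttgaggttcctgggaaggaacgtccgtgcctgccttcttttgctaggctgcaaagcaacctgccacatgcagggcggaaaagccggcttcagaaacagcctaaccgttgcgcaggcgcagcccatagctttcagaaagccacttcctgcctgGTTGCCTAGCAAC
Ccdc153, chr9:44240427-44240675 (plus strand): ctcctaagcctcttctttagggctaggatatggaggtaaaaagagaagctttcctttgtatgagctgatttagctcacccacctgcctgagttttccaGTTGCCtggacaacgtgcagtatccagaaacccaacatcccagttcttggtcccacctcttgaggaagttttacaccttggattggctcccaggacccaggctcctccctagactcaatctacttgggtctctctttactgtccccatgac
Tmem212, chr3:27896369-27896618 (minus strand): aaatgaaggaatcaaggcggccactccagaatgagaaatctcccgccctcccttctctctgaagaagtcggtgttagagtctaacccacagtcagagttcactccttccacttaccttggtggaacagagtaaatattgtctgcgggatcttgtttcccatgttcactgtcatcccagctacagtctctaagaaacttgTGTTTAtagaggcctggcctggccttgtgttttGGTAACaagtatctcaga

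The X-box of Dynlrb2 began 51 bases before its start and contained a GTTGCC half-site at the same position. The half-site of Ccdc153 began 152 bases before its start. In Tmem212 the forkhead core lay 51 bases and the GTTACC half-site 18 bases before the start. Of the genes not printed, Spag17 held GTTACC and TGTTTA and Dnah11 held TGTTTA. Among all 32851 windows of the same 300 bases, 12.5% held GTTGCC, 7.21% held GTTACC, 13.4% held TGTTTA and 1.53% held a whole X-box. Of 115 genes of the motile cilium lists described further on that had a window, 21 held a whole X-box (18.3%) and 56 held GTTGCC (48.7%), against 1.75% and 14.1% of all 27025 genes with a window. GTTACC was held by 20.9% of the listed genes, against 8.16%, and TGTTTA by 19.1%, against 15.1%. These matches are descriptions of letters and not of bound sites.

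Levels of the 9 genes were low. Means over the 12 libraries, in FPKM, were 2.97 for Rsph1, 2.11 for Rarres2, 1.73 for Ccdc153, 1.61 for Dynlrb2 and 1.12 for Tmem212. Dnah11, at 0.137, and Spag17, at 0.0862, reached 1 FPKM in no library. The joined loci lay higher, at 11.7 for Foxj1 with Rnf157 and 6.99 for the locus that holds Mia. A level of 1 FPKM in no fewer than 3 libraries was required for testing, and 7 of the 9 genes passed this filter. The libraries held an estimated 16596872 to 24739605 fragments. With the longest annotated transcript as the length, the values of Tmem212 then rested on 11 to 30 fragments per library outside the ErbB2V664E mutants and on 3 to 5 within them. Those of Dynlrb2 rested on 14 to 32 and 6 to 10, and those of Rsph1 on 57 to 107 and 36 to 41 fragments.

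The labelled tissue was checked by its markers. Mbp, which encodes myelin basic protein, was at 427 to 866 FPKM in the 12 libraries, and the neuronal gene Snap25 at 74.2 to 277, so the pieces held myelin together with neuronal RNA. Of 17 choroid plexus markers, none was at 0 in every library, though Kcne2 was listed at 0 in 2 dnEGFR mutants and Cldn2 in 1 ErbB2V664E mutant. Choroid plexus content was uneven. Ttr, which encodes transthyretin and is very abundant in choroid plexus, was at 17.5, 699 and 607 FPKM in dnEGFR controls and at 395, 689 and 128 in dnEGFR mutants. It was at 244, 545 and 236 in ErbB2V664E controls and at 617, 9.49 and 92.4 in ErbB2V664E mutants. These values are set beside the ependymal genes below.

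The first comparison asked whether the ependymal genes differed between dnEGFR mutants and their littermates, and no difference passed the test. Tmem212, a membrane protein gene used as an ependymal marker, was at 1.12, 2.02 and 1.05 FPKM in controls and at 2.14, 1.39 and 1.83 in mutants. The groups overlapped, with control 2 above mutants 2 and 3. Dynlrb2, which encodes a light chain of dynein, was at 2.07, 1.68 and 2.07 in controls and at 2.00, 1.63 and 2.89 in mutants, where mutant 3 alone lay above all controls. Rsph1, a component of the radial spoke head, was at 3.18, 4.48 and 3.40 in controls and at 3.59, 3.95 and 3.83 in mutants, so that the mutants lay inside the range of the controls. Ccdc153, a nexin link gene also called Drc12, was at 2.31, 3.40 and 2.03 in controls and at 2.45, 2.44 and 2.08 in mutants, again inside the range of the controls. Rarres2, which encodes the secreted protein chemerin, was at 2.46, 3.50 and 3.51 in controls and at 3.11, 2.89 and 3.61 in mutants.

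Log2 differences of the 7 tested loci in the dnEGFR line lay between -0.14 (Foxj1 locus) and 0.23 (Tmem212), with limma's adjusted p from 0.987 to 1. In this comparison 0 of 7 passed an adjusted p of 0.05, against 0.0942% of all 13803 tested loci, and 0 of 7 had an unadjusted p under 0.05, against 5.69%. For Rsph1 the 95% interval of the difference on the log2(FPKM + 1) scale reached from -0.30 to 0.38, and for Tmem212 from -0.20 to 0.66. The values of 3 mice in each group leave differences anywhere within these intervals possible. The Foxj1 locus was at 7.70, 8.23 and 8.94 FPKM in controls and at 8.27, 7.41 and 6.65 in mutants, and the Mia locus at 5.56, 5.39 and 6.16 against 5.11, 6.14 and 6.33. The signs of Dynlrb2, Rsph1, Ccdc153, Rarres2 and the Mia locus changed when single libraries were left out, so no direction can be given for them.

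**Figure D1:**
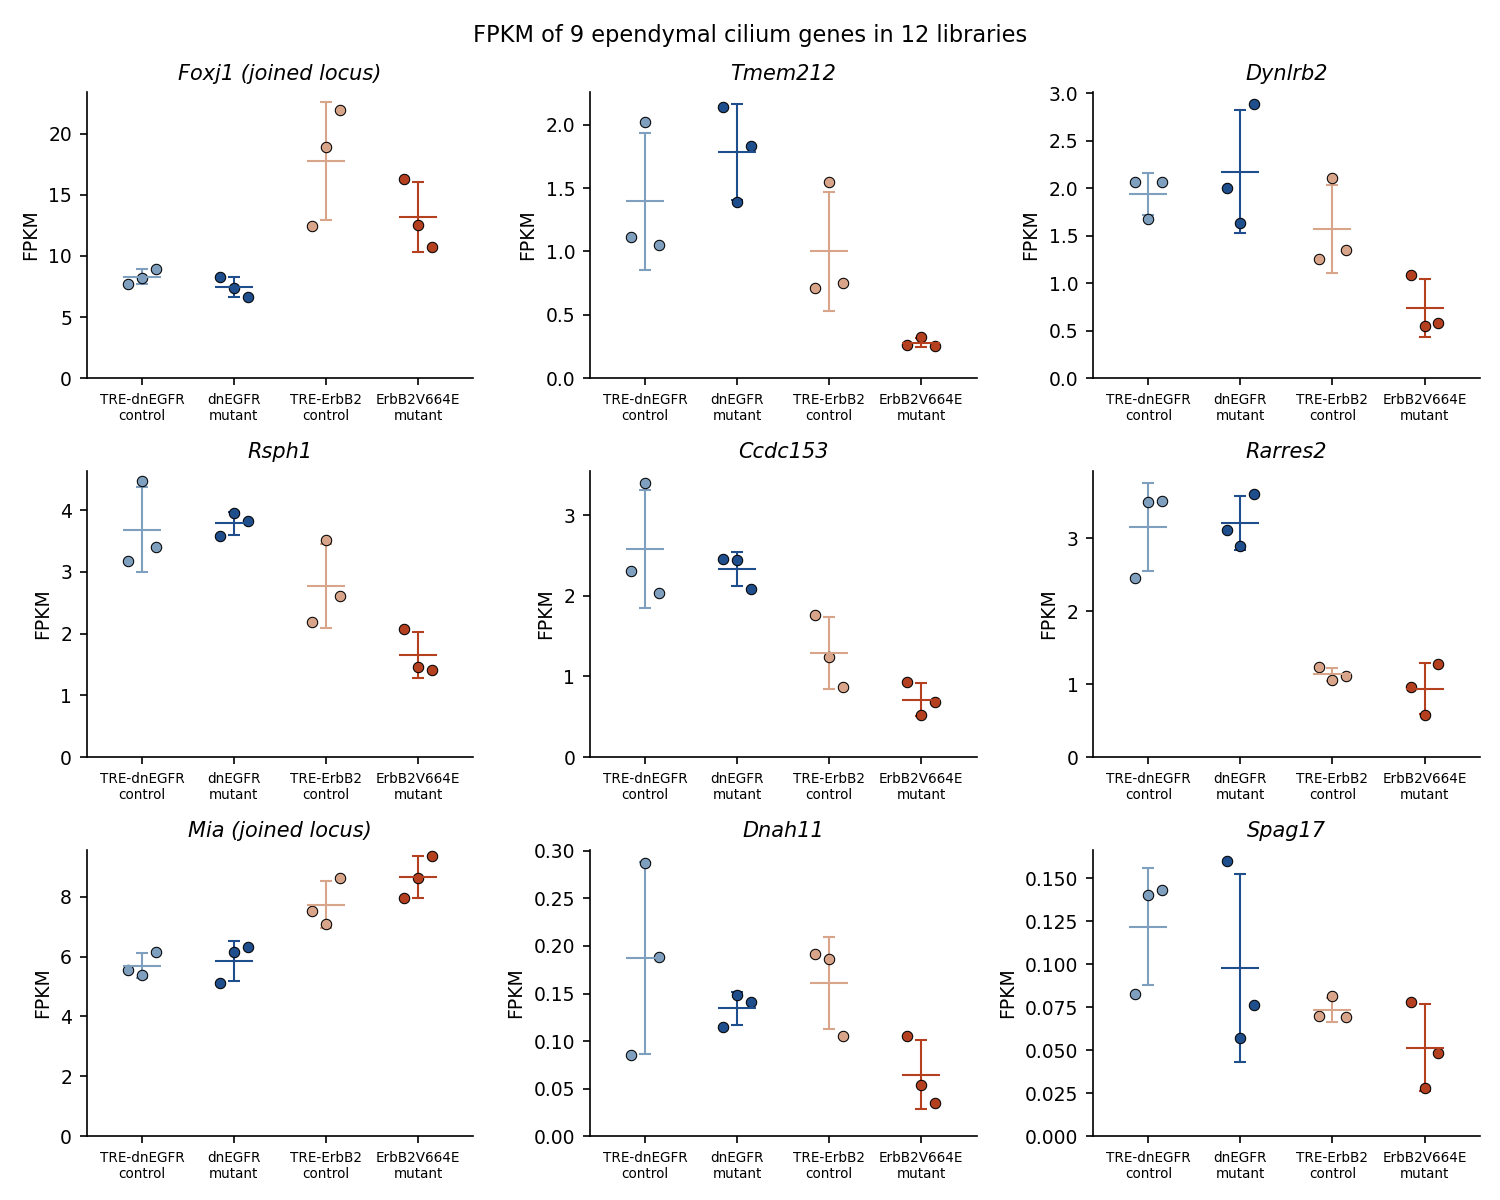
FPKM (y axis, from 0) of the 9 genes in the 12 libraries, with the 4 groups on the x axis, 1 point per library, and the mean ± SD of each group (n = 3) as a horizontal bar with whiskers. Tmem212 lay at 0.254 to 0.325 in the 3 ErbB2V664E mutants and at 0.709 or more in every other library, while Rarres2 lay lower in every ErbB2V664E library than in every dnEGFR library.

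The second comparison asked the same in the ErbB2V664E line. Tmem212, Dynlrb2 and Rsph1 were lower in each mutant than in each control, but no gene passed the test over all loci. Tmem212 was at 0.709, 1.55 and 0.755 FPKM in controls and at 0.264, 0.325 and 0.254 in mutants. The 3 mutant values were close together, and every one was below the lowest control. Means were 1.00 ± 0.470 and 0.281 ± 0.0385 FPKM (SD, n = 3 each), a control mean 3.57 times that of the mutants and a log2 difference of -0.62 (SE 0.19, limma adjusted p = 0.225).

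Dynlrb2 was at 1.26, 2.11 and 1.35 in controls and at 1.09, 0.545 and 0.578 in mutants. The groups did not overlap, and the mutant of litter 4 lay nearest to the controls. Its log2 difference was -0.56 (SE 0.18, adjusted p = 0.238), with a control mean 2.13 times the mutant mean. Rsph1 was at 2.18, 3.51 and 2.61 in controls and at 2.08, 1.46 and 1.41 in mutants. Here too the mutant of litter 4 was near its littermate, at 2.08 against 2.18. The log2 difference of Rsph1 was -0.50 (SE 0.15, adjusted p = 0.212), with means of 2.77 ± 0.680 and 1.65 ± 0.374 FPKM.

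Ccdc153 was at 1.76, 1.25 and 0.872 in controls and at 0.926, 0.525 and 0.686 in mutants. Mutant and control values overlapped, though each mutant lay below its own littermate (log2 difference -0.41, SE 0.17, adjusted p = 0.381). Rarres2 was at 1.24, 1.06 and 1.11 in controls and at 0.957, 0.580 and 1.28 in mutants. The mutant of litter 6 lay above all controls, and the difference was -0.15 (SE 0.15, adjusted p = 0.734). The Foxj1 locus was at 12.5, 18.9 and 22.0 in controls and at 16.3, 12.6 and 10.7 in mutants (-0.39, adjusted p = 0.474), with overlapping groups. The locus of Mia, which encodes a secreted protein, was at 7.52, 7.08 and 8.63 in controls and at 7.95, 8.65 and 9.36 in mutants (0.14, adjusted p = 0.633), also with overlap, and each mutant there lay above its own littermate.

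In the ErbB2V664E comparison 0 of 7 tested loci passed an adjusted p of 0.05, against 0.275% of all tested loci. Tmem212, Dynlrb2, Rsph1 and Ccdc153 had an unadjusted p under 0.05 in the lower direction, 4 of 7, against 6.24% of all tested loci, and 0 of 7 in the higher direction, against 5.90%. Non-overlap in the lower direction was found for 3 of 7, against 8.96%. The 5 tested genes with a locus of their own had a median log2 difference of -0.50, beside 0.0044 over all tested loci. On this scale, with 1 added to each FPKM, differences of genes with low values are understated. With 0.1 added the difference of Tmem212 was -1.46 and that of Dynlrb2 -1.02, neither past the threshold (adjusted p = 0.133 and 0.206).

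The 2 genes below the filter were compared with an exact permutation test, two-sided, whose smallest possible p with 3 against 3 is 0.1. Dnah11, a heavy chain of the outer dynein arm, was at 0.192, 0.186 and 0.105 FPKM in ErbB2V664E controls and at 0.105, 0.0541 and 0.0346 in mutants. The highest mutant lay just under the lowest control, and the exact p was 0.1. Without overlap in the lower direction were 8.40% of 5537 loci that missed the filter but had a value above 0 in every library and a mean of at least 0.05 FPKM. Spag17, a protein of the central pair, was at 0.0697, 0.0817 and 0.0695 in controls and at 0.0781, 0.0281 and 0.0482 in mutants, with an exact p of 0.3. In the dnEGFR line Dnah11 was at 0.0858, 0.288 and 0.188 in controls and at 0.114, 0.148 and 0.141 in mutants (exact p = 0.5). Spag17 was at 0.0828, 0.140 and 0.143 against 0.160, 0.0572 and 0.0760 (exact p = 0.6).

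**Figure D2:**
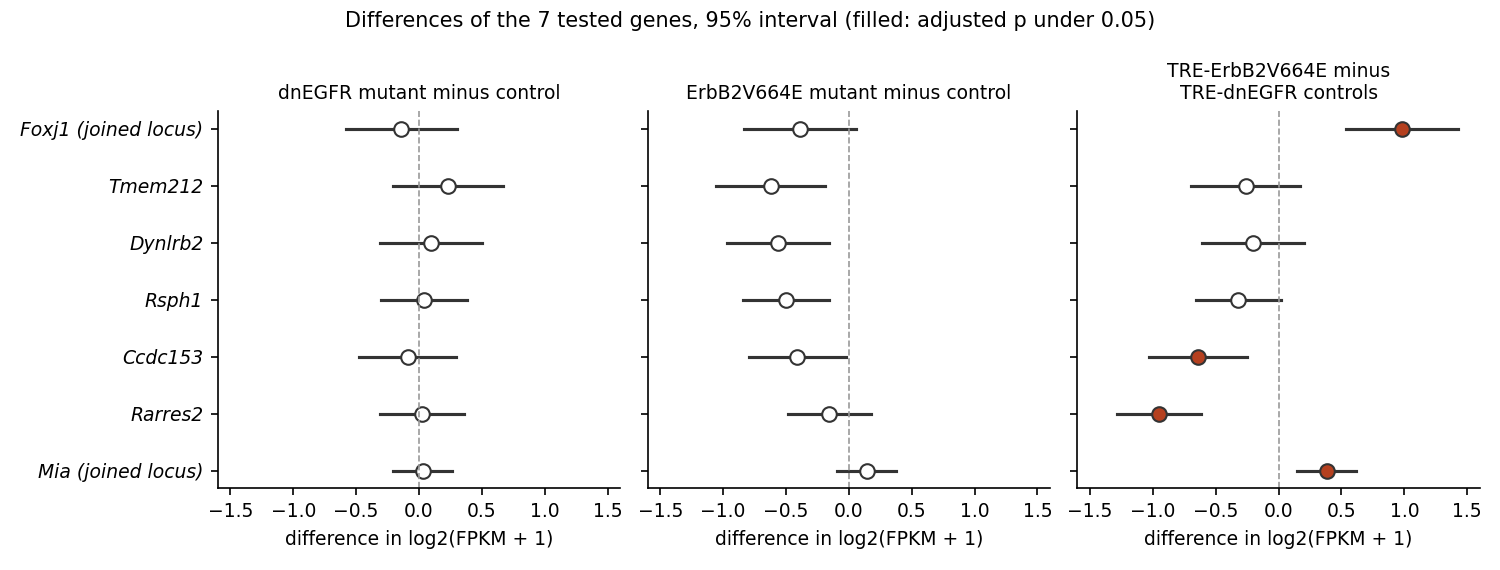
Differences in log2(FPKM + 1) (x axis) of the 7 tested genes for both mutant comparisons and for the controls of the 2 lines, with points for limma estimates and lines for 95% intervals, filled where the adjusted p was under 0.05. No point is filled in the mutant comparisons, where Tmem212 was at 0.23 and -0.62, and 4 are filled between the controls, led in size by the Foxj1 locus at 0.98 and Rarres2 at -0.95.

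Whether the effects of the 2 transgenes differed was tested as the ErbB2V664E difference minus the dnEGFR difference. It was -0.85 for Tmem212 (SE 0.28, adjusted p = 0.422), -0.66 for Dynlrb2 (adjusted p = 0.506) and -0.54 for Rsph1 (adjusted p = 0.513). For Ccdc153 and Rarres2 it was -0.32 and -0.18 (adjusted p 0.731 and 0.828). Among the 7 tested loci 0 passed, against 0.116% of all loci, and 3 had an unadjusted p under 0.05 in the lower direction, against 4.77%.

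Each mutant was also set beside its own littermate. In litter 5, whose mutant had the lowest Ttr, all 7 genes with a locus of their own were lower in the mutant, and Tmem212 was at 0.210 times its littermate. In litter 6 it was 6 of 7, with Tmem212 at 0.336 times. In litter 4, where Ttr ran the other way at 617 FPKM in the mutant and 244 in the control, 6 of the 7 genes were lower in the mutant. Tmem212 was there at 0.372, Ccdc153 at 0.527 and Dnah11 at 0.548 times the littermate, while Dynlrb2 (0.868), Rsph1 (0.953) and Spag17 (1.12) lay nearer to it. Of the 17 choroid plexus genes, 1 was lower in the mutant of litter 4, 17 in that of litter 5 and 15 in that of litter 6. The share of all loci lower in each mutant is not given here, so these counts are descriptions of single pairs.

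In the dnEGFR line the litters ran in different ways. The mutant of litter 1 was lower than its littermate in 1 of the 7 genes, that of litter 2 in 7 and that of litter 3 in 2. Tmem212 stood at 1.92, 0.686 and 1.74 times the littermate in these litters. The choroid plexus genes lower in the mutant numbered 3, 12 and 16 of 17. In litter 3 most choroid plexus genes were thus lower and most ependymal genes higher in the mutant. These counts too have no share of all loci beside them.

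**Figure D3:**
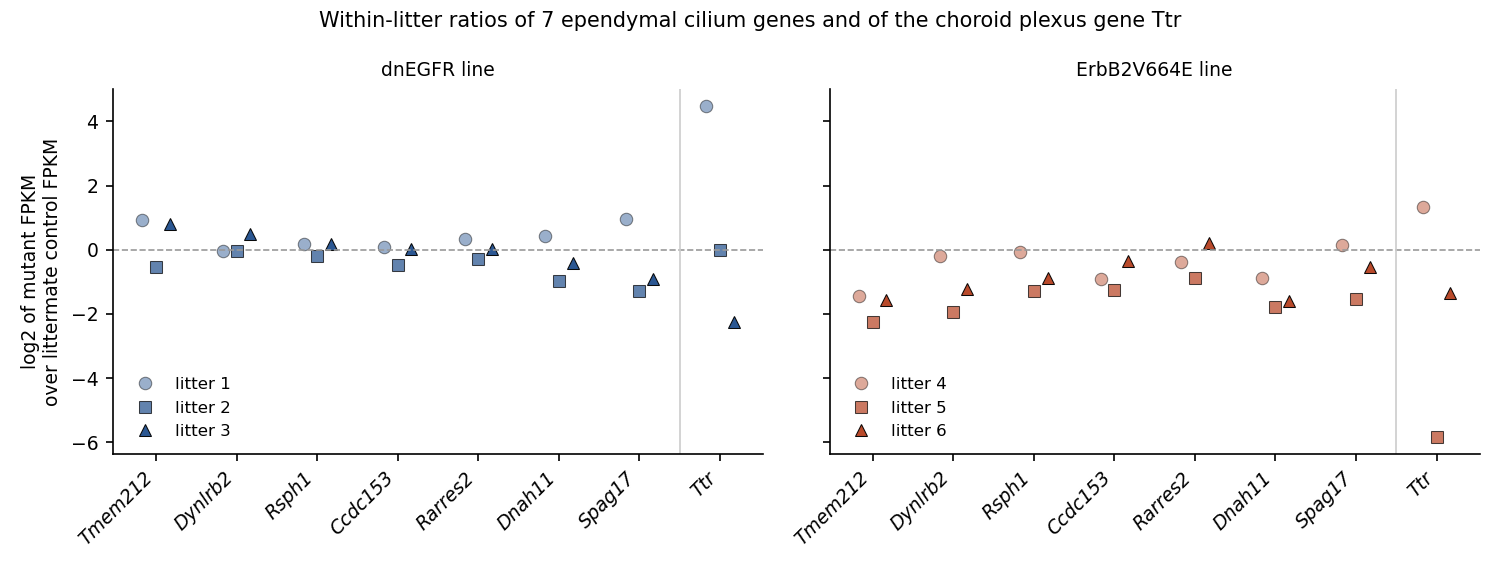
Log2 of mutant FPKM over littermate control FPKM (y axis) for the 7 genes with a locus of their own and for Ttr (x axis), in litters 1 to 3 of the dnEGFR line and 4 to 6 of the ErbB2V664E line, with 1 symbol per litter. Tmem212 lay below 0 in litters 4, 5 and 6, at ratios of 0.372, 0.210 and 0.336, while Ttr lay above 0 in litter 4.

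Markers of other cells were uneven in the ErbB2V664E line as well. For the counts that follow, 0.275% of all tested loci passed and 6766 of 13803 had negative differences. Summed over 17 choroid plexus genes, controls lay between 360 and 773 FPKM and mutants between 38.7 and 814. The 14 tested choroid plexus genes had negative differences in 14 of 14, with a median of -0.68 and 0 passing the test. The 5 red blood cell genes summed to 95.5 to 214 FPKM in controls and 22.1 to 118 in mutants, with 5 of 5 negative, a median of -1.57 and 0 passing. Over 10 oligodendrocyte genes the sums were 1212 to 1954 and 731 to 1183, with 10 of 10 negative, a median of -0.77 and 1 passing. The median was -0.39 for astrocyte genes, of which 7 of 8 were negative and 0 passed, and 0.15 for neuron genes, of which 6 of 8 were positive and 0 passed. Astrocyte genes summed to 284 to 434 FPKM in controls and 210 to 244 in mutants, and neuron genes to 757 to 892 and 722 to 973. Subventricular neuroblast genes, with a median of -0.056 and 5 of 9 negative, and striatal neuron genes, with -0.17 and 8 of 11 negative, had 0 passing. The neuroblast genes summed to 118 to 125 FPKM in controls and 35.9 to 85.7 in mutants. For striatal neuron genes the sums were 297 to 503 and 319 to 404. Of the 10 meningeal and fibroblast genes 2 were tested, both negative, with 0 passing, and the 10 summed to 10.7 to 21.8 and 7.48 to 11.4. The part of these cells in the values of the ependymal genes was not tested.

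Differences of ependymal genes that passed the test lay between the controls of the 2 lines. Line, age, span of doxycycline and responder differ together between the TRE-ErbB2V664E and the TRE-dnEGFR controls and cannot be told apart. Rarres2 was at 1.24, 1.06 and 1.11 FPKM in the ErbB2V664E controls and at 2.46, 3.50 and 3.51 in the dnEGFR controls. The groups were far apart, with means of 1.13 ± 0.0927 and 3.16 ± 0.605 (log2 difference -0.95, SE 0.15, limma adjusted p = 0.00221). Ccdc153 was at 1.29 ± 0.444 and 2.58 ± 0.726, without overlap (-0.64, SE 0.17, adjusted p = 0.0275). That call was lost in 4 of 6 fits that left out 1 control (adjusted p up to 0.0961), while Rarres2 kept its call in each of its 15 alternatives.

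The joined Foxj1 locus was higher in the ErbB2V664E controls, at 17.8 ± 4.85 against 8.29 ± 0.625 FPKM (0.98, SE 0.20, adjusted p = 0.0079), and kept its call in each of 15 alternatives. The joined Mia locus was higher as well, at 7.74 ± 0.799 against 5.70 ± 0.404 (0.38, adjusted p = 0.03), and lost its call in 4 of 6 fits without 1 control, at adjusted p up to 0.103, and with quantile normalization, at 0.0601. Differences were -0.32 for Rsph1 (adjusted p = 0.17), -0.26 for Tmem212 (0.384) and -0.20 for Dynlrb2 (0.471). In all 4 of 7 passed, against 20.0% of all tested loci, 2 of them higher, against 10.9%, and 2 lower, against 9.12%. Of the lower ones, Ccdc153 met the filter through the line with the higher values. With only the 2 control groups in the fit 2 of 7 passed, against 16.8% of all loci, and with no filter on low values 2 of 9, against 6.56%.

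Across the 4 groups the means of Tmem212, Dynlrb2 and Rsph1 had one order from high to low, which was dnEGFR mutants, dnEGFR controls, ErbB2V664E controls and ErbB2V664E mutants. For each of the 3 genes neighbours among the first 3 of these groups overlapped, and the ErbB2V664E mutants stood below all other libraries. Rarres2 had the same order of means, but there the step lay between the lines. Its dnEGFR libraries, mutants included, were all at 2.46 FPKM or more, and its ErbB2V664E libraries all at 1.28 or less. Ccdc153 was divided in the same place, with 2.03 or more in the dnEGFR line and 1.76 or less in the other.

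The wider machinery of the motile cilium was read from 9 lists of genes (regulators, parts of the axoneme, its assembly and further markers), with 143 genes in all. Of these, 138 had a locus and 67 were tested. In the dnEGFR comparison 0 of 67 passed, 0 had an unadjusted p under 0.05, and the median log2 difference was -0.044 with 42 negative, beside a median of 0.0054 and 6708 of 13803 negative over all loci. In the ErbB2V664E comparison 0 of 67 passed, with a median of -0.078 and 42 negative, beside 0.0044 and 6766 of 13803. There 11 of 67 had an unadjusted p under 0.05 in the lower direction, against 6.24% of all loci, and 2 in the higher, against 5.90%. Without the ependymal genes named above, 8 of the remaining 63 were lower and 2 higher at that level, and the median was -0.069. Both counts of lower loci include Odf3b, which met the filter through the ErbB2V664E controls, the group with the higher values. For these 63 the difference between the effects in the 2 lines had a median of 0.0005 with 31 negative, beside -0.0038 and 6967 of 13803 for all loci. Of 63 further listed loci below the filter, with the same limits as above, 47 had a lower mean in the ErbB2V664E mutants than in their controls, with a median ratio of 0.781, beside 2660 of 5537 and 1.02 for all such loci. Of the same 63 loci, 40 were lower in the dnEGFR mutants (median ratio 0.916), beside 2784 of 5537 (0.997). Between the controls 45 were lower in the ErbB2V664E line (0.877), beside 3094 of 5537 (0.936). Lower values of these loci thus outnumbered higher ones in all 3 comparisons, of which that between the controls shares its libraries with the other two, and whether the mutant comparisons differed was not tested for them.

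The differences in the ErbB2V664E line follow by part of the axoneme. Beside Dynlrb2, the outer dynein arm genes tested were Dnal1, a light chain (-0.0048), and Odad3, a docking complex gene listed as Ccdc151 (-0.095). Of the inner arm, Dnai4, an intermediate chain listed as Wdr78, had -0.35 and Dnah1, a heavy chain, -0.088. Besides Rsph1, the radial spoke genes with the highest levels lay close to 0, with Rsph3a at 0.033 and Nme5 at -0.0084. Fragments of Rsph3a and its near copy Rsph3b may have been divided between them. Besides Ccdc153, nexin link genes with the highest levels also lay near 0, with Drc1 at 0.065, Gas8 at 0.021 and Ccdc39 at 0.055. Nexin link genes at lower levels included Drc7 at -0.80 (SE 0.44), Ccdc65 at -0.33 and Iqcg at -0.21. Drc7 was at 2.34, 3.28 and 1.70 FPKM in controls and at 2.60, 0.493 and 0.358 in mutants. In all, 4 of the 8 tested nexin link genes were negative and 4 positive, with a median of -0.093. Among central pair genes, Cfap74 had 0.11, Stk36 -0.073 and the joined locus of Spef1 -0.90. Of the assembly factors with the highest levels, the joined locus of Dnaaf4 had -0.016, Cfap298 0.077 and the joined locus of Spag1 0.012. The doublet protein Cfap20 had 0.18, and the regulators Rfx1 and E2f5 had 0.091 and -0.012. None of these differences passed the test (adjusted p from 0.405 to 1). Dnali1, a light chain of the inner arm, missed the filter, at 0.192 to 1.23 FPKM in the controls and 0.252 to 0.686 in the mutants, which overlapped.

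Of the other ependymal markers, Pltp, a phospholipid transfer protein, was at 18.3 FPKM in ErbB2V664E controls and 10.2 in mutants (-0.84, adjusted p = 0.173). It was called without the mutant of litter 4, at -1.12 with an adjusted p of 0.0179, as was the locus that joins the tubulin genes Tuba1b and Tuba1a (-0.59, adjusted p = 0.0469). In that fit these were 2 of 67 listed loci, and 1.73% of all loci were called, against 0.275% with the mutant included. With all mutants the Tuba1b and Tuba1a locus had -0.48 (adjusted p = 0.154). Tubulins and Pltp are also made by many other cells. Nudc and the joined Tppp3 locus had 0.13 and 0.12. Of the 21 tested loci of this list 15 had negative and 6 positive differences, with 0 passing. An unadjusted p under 0.05 was found for 6 lower, against 6.24% of all tested loci, and 0 higher, against 5.90%. Those 6 were Pltp, Ak7 (-0.48), Cd24a (-0.54), S100a6 (-0.57), Fam183b (-0.45) and Odf3b (-0.41). Odf3b met the filter through the ErbB2V664E controls, the group with the higher values here, so its place among the 6 depends on that filter. Tubb4b, a tubulin of the axoneme and of other microtubules, had -1.26 (SE 0.59, adjusted p = 0.428). It was at 70.8, 81.1 and 75.1 FPKM in controls and at 12.8, 49.8 and 45.6 in mutants. In the dnEGFR line Tubb4b had -0.88 (SE 0.59), with mutants at 62.8, 13.7 and 59.7. Of 23 intraflagellar transport genes, which build cilia of every kind, 0 passed in either mutant comparison, and the medians were -0.056 in the dnEGFR and 0.030 in the ErbB2V664E line. Those with the highest levels had -0.043 (Kifap3), 0.013 (Ift20) and 0.28 (Ift57) in the ErbB2V664E line. The difference of Ift57 there had a limma adjusted p of 0.205, and in the dnEGFR line Ift57 had 0.13 (limma adjusted p = 0.963).

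**Figure D4:**
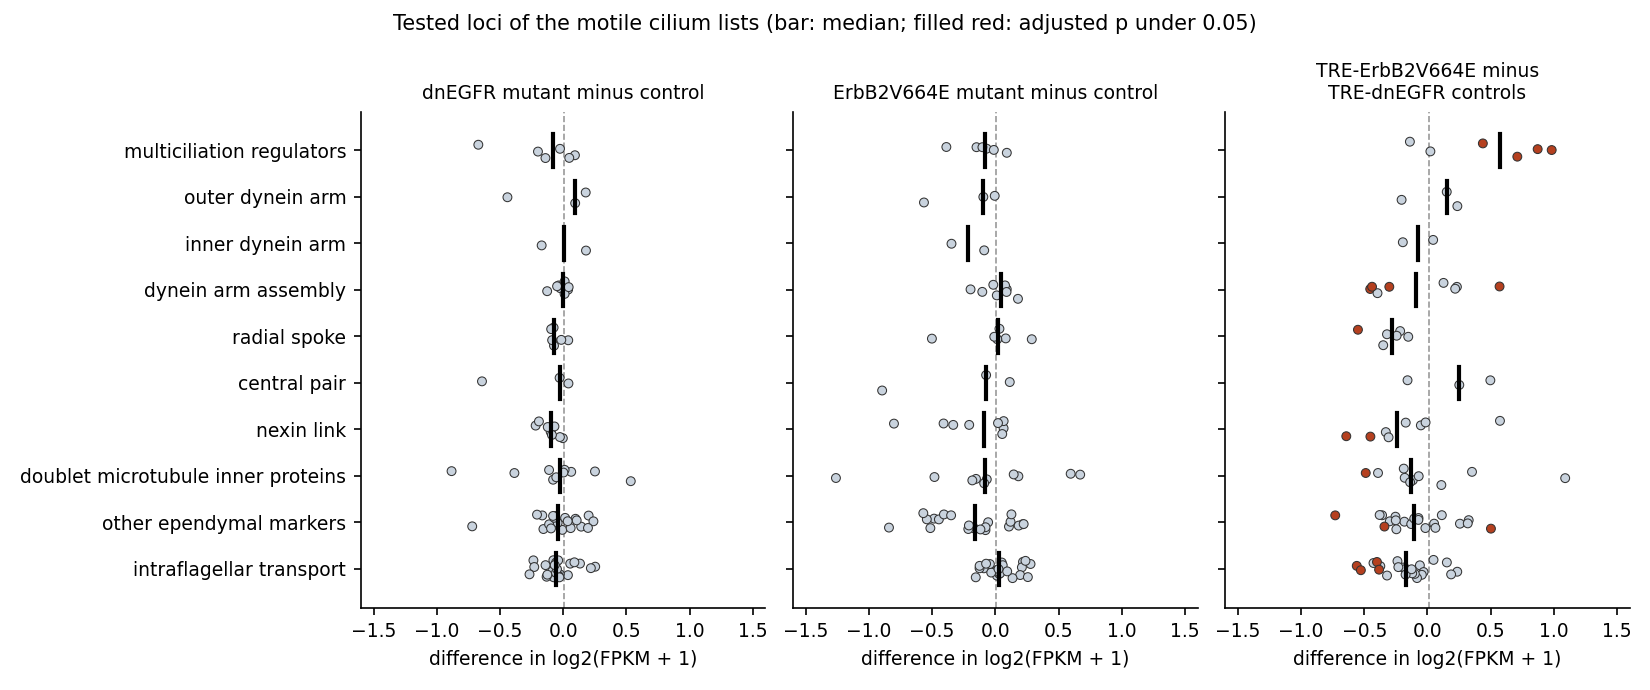
Differences in log2(FPKM + 1) (x axis) of the tested loci in each motile cilium list and in the intraflagellar transport list (rows), for both mutant comparisons and the controls of the 2 lines, with 1 point per locus, black bars for list medians, a dashed line for the median of all tested loci and red points where the adjusted p was under 0.05. No point is red in the mutant comparisons, and 4 of 6 tested regulators are red and higher between the controls, 2 of them joined loci (Foxj1 and E2f4), where 10.9% of all tested loci were called higher.

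Between the controls of the 2 lines 15 of the 67 listed loci passed, a share of 22.4% that lay near the 20.0% of all loci. In the ErbB2V664E controls 9 were lower (13.4%, against 9.12% of all loci) and 6 higher (8.96%, against 10.9%). These shares are no result about the lists, and the values that follow describe single genes. The higher ones, besides the Foxj1 locus, were these. Rfx1, an RFX factor, was at 3.98 against 2.04 FPKM (0.71, adjusted p = 0.000958), Rfx4 at 2.64 against 1.68 (0.44, 0.0246) and the joined locus of E2f4, a cell cycle factor used in multiciliation, at 4.04 against 1.77 (0.87, 0.000427). The dynein assembly factor Dnaaf5 (0.57, 0.0026) and the marker Odf3b (0.50, 0.0367) were higher as well. Odf3b met the filter through the ErbB2V664E controls, at 1.13, 1.24 and 1.21 FPKM. Beyond them only the dnEGFR mutant of litter 3, at 1.14, reached 1 FPKM. The call of Odf3b thus depends on a filter met through the group with the higher values.

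The lower ones, besides Ccdc153, were these. Ccdc39, a ruler protein of the doublet, was at 2.81 against 4.23 FPKM (-0.45, adjusted p = 0.0268). Nme5, a radial spoke protein, was at 2.36 against 3.92 (-0.55, 0.0328). The assembly factors Dnaaf11 (-0.45), Cfap300 (-0.44) and the joined locus of Spag1 (-0.30) passed at 0.0305, 0.019 and 0.0296. Enkur, a doublet protein, Cfap100 and Lrriq1 had -0.49, -0.34 and -0.73, at adjusted p of 0.0487, 0.035 and 0.0202. Lrriq1 reached 1 FPKM only in dnEGFR libraries, the control of litter 3 (1.05) and the mutants of litters 1 and 2 (1.05 and 1.18). Outside the dnEGFR line Enkur reached 1 FPKM only in the ErbB2V664E mutant of litter 6, at 1.03. The calls of Lrriq1 and Enkur thus depend on a filter met through the line with the higher values. Of the intraflagellar transport genes Ift20 (-0.56), Ift74 (-0.53), Dync2h1 (-0.40) and Dync2li1 (-0.38) passed, 17.4% of 23 tested and all lower, beside 9.12% of all loci. Of the 23, 19 were negative, beside 6701 of 13803 loci. In the fits without single controls 9.09% to 16.4% of the listed loci were called, 6 to 11 of 64 to 67, beside 13.3% to 15.7% of all loci.

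Finally, the genes whose pattern over the 12 libraries was most like the mean of the 7 tested loci were ranked by Pearson's r, as a description with no test. They were As3mt, which methylates arsenic (r = 0.966), Taf15, an RNA-binding protein (0.95), Lrrc51 (0.941), Arv1 (0.93), Idi1, an enzyme of sterol synthesis (0.93), Kif11, a mitotic kinesin (0.926), Mpzl1 (0.923), Lix1 (0.92), Tmem173, the innate immune adaptor STING (0.92), and Chst10 (0.919). As3mt was at 3.96 to 6.32 FPKM in the dnEGFR line, at 3.28 to 4.96 in ErbB2V664E controls and at 1.29 to 2.75 in ErbB2V664E mutants. The 12 points fall into the same lines and groups for every gene, so that r holds the differences between groups described above. None of these 10 genes is in the motile cilium lists.

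The tested genes were also set against this mean, of which each is itself a part. That raises their r, here and with the 5 genes below, so these r are no evidence of a shared pattern. Among the 7 loci, r was 0.972 for Rsph1, 0.925 for Tmem212 and 0.924 for Dynlrb2, and negative for the joined loci of Foxj1 (-0.359) and Mia (-0.788). With the 5 genes at a locus of their own, r lay between 0.901 (Dynlrb2) and 0.966 (Rsph1), and the 10 most alike genes began with Agpat5 (0.97), Hnrnpa2b1 (0.961) and Lrrc51 (0.96). Lrrc51 was thus near the top of both rankings, at 1.52 to 2.33 FPKM in dnEGFR controls and 0.617 to 0.957 in ErbB2V664E mutants. Of the listed cilium genes, Ak7, an adenylate kinase of the axoneme, came first in both rankings. Against the mean of the 7 loci its r was 0.872, followed by Mlf1 (0.839) and Tekt2, a tektin filament gene (0.833), and 73 loci with 1 symbol had an r at least as high as that of Ak7. Against the mean of the 5 genes these were 0.879, 0.85 and 0.837, and 229 loci were at least as high as Ak7. Ak7 itself was at 1.19, 1.94 and 0.791 FPKM in ErbB2V664E controls and at 0.753, 0.612 and 0.493 in mutants (adjusted p = 0.251). These groups did not overlap, beside 8.96% of all tested loci without overlap in the lower direction. In the dnEGFR line Ak7 was at 1.65, 1.89 and 1.55 in controls and at 1.54, 1.28 and 1.40 in mutants (adjusted p = 0.992). The median r with the mean of the 7 loci was 0.303 over 63 listed genes and -0.015 over all loci.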

How the data were processed

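RNA of 12 mice was sequenced in paired ends after selection of polyadenylated RNA, per the labels' protocols. The deposited values are FPKM from StringTie, as the series' design text says, and HISAT is also named in the submitters' processing notes. Build, annotation and program options were not given in the sources used here, and the protocol names no stranded step, so overlapping genes cannot be told apart. For testing, limma 3.58.1 (R 4.3.3) was run on log2(FPKM + 1), with 1 mean per group over 12 libraries and empirical Bayes with a variance trend (8 residual and 2.03 prior degrees of freedom). P-values were two-sided and adjusted by Benjamini and Hochberg over the 13803 loci that reached 1 FPKM in at least 3 libraries, with a threshold of 0.05. Fragment numbers were estimated from the steps of low values.

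Descriptions name a littermate control for each mutant, so the libraries are paired by litter. Deviations from the group means correlated within litters at 0.0162, 0.0089, 0.0326, -0.0036, 0.0099 and -0.0253. Litter entered as an alternative. Other alternatives were pseudocounts of 0.1 and 0.5, the filter, scaling, the variance trend, the groups in the fit, summing loci of a symbol and leaving out each library. The likeness to the 5 genes with a locus of their own, the values in the litter with the higher Ttr in its mutant, GTTACC and the whole X-box were added after seeing the data. The genes and lists were chosen with earlier results of these data known. Named genes were the 9 genes, listed cilium genes that passed a test or were among the 3 with the highest mean of their list, Mbp, Ttr and the 10 genes most alike in pattern. Ak7, Mlf1, Tekt2, Snap25, Kcne2, Cldn2, Drc7, Ccdc65, Iqcg, Cd24a, S100a6 and Fam183b were named after their values were seen. Summaries were computed in Python 3.11.15 (pandas 2.3.3, numpy 2.4.6, scipy 1.17.1) and plotted with matplotlib 3.10.9.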

Additional observations from a re-analysis of the deposited data

How the results depend on the processing

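With litter as a replicate block no member passed in either mutant comparison or in their difference (adjusted p from 0.356 to 1), and the block changed no call of a member. The controls of the 2 lines share no litter and allow no block. It left 3 loci called in the dnEGFR comparison in place of 13, 7 in the ErbB2V664E comparison in place of 38 and 4 in the difference in place of 16. With only the groups compared in the fit, 22 loci were called in the dnEGFR and 23 in the ErbB2V664E comparison, and with a mean of at least 1 FPKM as the filter 21 in the latter. The median difference of the tested members in the ErbB2V664E comparison (-0.41) was -0.71 with a pseudocount of 0.1 and -0.55 with 0.5, that of the difference between lines (-0.32) was -0.64 and -0.45, and that between the controls (-0.26) was -0.41 with 0.1. For the motile cilium lists, a pseudocount of 0.1 gave medians of -0.13 in the ErbB2V664E comparison and -0.18 between the controls. The latter was -0.0612 without a filter and -0.17 with quantile normalization. The median of the lists for the difference between lines (-0.0445) was 0.012 with the mean filter and 0.005 with loci of a symbol summed. Between the controls 2 members were called without a filter and 2 with only these groups in the fit, and 7 and 9 listed loci in place of 15, where 6.56% and 16.8% of all loci were called in place of 20.0%. The causes were not tested.

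Leaving out 1 library gave 16 to 34 loci called in the dnEGFR comparison, 12 to 235 in the ErbB2V664E comparison (235 without the mutant of litter 4, 12 without that of litter 5), 12 to 35 in the difference and 1809 to 2142 between the controls. Members called stayed at 0 in both mutant comparisons and numbered 2 to 4 between the controls, with 2 without the dnEGFR controls 1 or 2 or the ErbB2V664E control of litter 6. The medians of the members ranged from -0.61 to -0.36 (ErbB2V664E), -0.48 to -0.24 (difference) and -0.45 to -0.16 (controls). Those of the lists for the difference ranged from -0.0675 to 0.0168. Listed loci called ranged from 0 to 2 (ErbB2V664E, beside 0.0885% to 1.73% of all loci) and from 6 to 11 (controls, beside 13.3% to 15.7%). In the dnEGFR line signs turned, with ranges of -0.0617 to 0.22 for Dynlrb2, -0.0366 to 0.16 for Rsph1, -0.20 to 0.0697 for Ccdc153, -0.10 to 0.0879 for Rarres2 and -0.0194 to 0.11 for the Mia locus. In the ErbB2V664E line no member changed sign under any of its 16 alternatives. At 3 to 5 estimated fragments, Tmem212 in the ErbB2V664E mutants is limited by depth.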
